A study of Danio rerio with 6 samples.

Results

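Crystallins are the proteins that fill the fibre cells of the eye lens and give it its refractive power. Their transcripts were compared between zebrafish (Danio rerio) embryos given a splice morpholino against glut12 and embryos given a control morpholino. The genes were taken by symbol, in either letter case: every listed gene whose symbol starts with cryaa, cryab, cryba, crybb, crygm, crygn or crygs. Of 52 such genes among the 31452 listed, 49 had a value of at least 1 in 3 or more of the libraries, namely 2 alpha, 13 beta and 34 gamma crystallin genes. Those left out were crygm6, listed at 0 in all libraries, and crygs4 and cryaba, each with a value of 1 in a single library. Just inside the limit was CRYGM4, with 0, 0 and 1 in controls and 7, 1 and 1 in morphants, which passed mainly through its values in morphants.

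RNA was sequenced from whole embryos at 4 days post fertilization, with 3 libraries from embryos given the control morpholino (controls) and 3 from embryos given the glut12 splice morpholino (morphants). Each library came from 10 pooled embryos, and the labels give no strain or genotype beyond the injection. A morpholino is a synthetic antisense oligomer that blocks its target transcript for a time and leaves the gene intact. The labels leave unsaid which clutches the pools were drawn from. The p-values therefore cover the variation among 3 pools a group, part of which may be technical. In whole-embryo RNA, fewer lens cells and less crystallin RNA per cell cannot be told apart.

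Alpha crystallins belong to the small heat shock protein family and act as chaperones, keeping other lens proteins soluble. They are known outside the lens too, above all the alpha B form in muscle and heart. Beta and gamma crystallins share a common fold and are mainly structural. Fish carry a large family of methionine-rich gamma M crystallins, suited to the dense, hard lens of an aquatic eye.

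The values are normalised read counts, that is, reads per gene divided by a factor for each library and rounded to whole numbers. They are not corrected for gene length, so values are compared between libraries and not between genes. Totals over all genes lay between 10397713 and 11762915, and estimated depths between 7550000 reads in control 1 and 15180000 in morphant 1. The target gene, listed as slc2a12 on chromosome 23, was at 160, 145 and 143 in controls 1 to 3 and at 98, 97 and 90 in morphants 1 to 3. The groups did not overlap, and the log2 fold change was -0.65 ± 0.13 (standard error, SE), with a limma adjusted p of 0.158, or 0.0467 with the libraries weighted. All fold changes are morphant minus control on a log2(value + 1) scale, on which differences of low genes come out too small. The p-values were adjusted over 26082 tested genes.

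Crystallin transcripts were lower in morphants in sum, by 25.7% of the control level. The summed value of the 49 genes was 152828, 126387 and 119857 in controls 1 to 3 and 90003, 106596 and 99741 in morphants 1 to 3. All 3 morphants lay below all 3 controls, control 1 was the highest library and morphant 1 the lowest. As a share of the library total, crystallins made up 1.16% ± 0.12 (SD, n = 3) in controls and 0.936% ± 0.094 (SD, n = 3) in morphants. The log2 ratio of the group means was -0.43 for the sums and smaller, at -0.31, for the shares. No single crystallin passed the test across all genes: limma called 0 of 49 at an adjusted p of 0.05, with 0.127 as the lowest adjusted p, where 0.023% of all tested genes were called. With libraries weighted in limma, 2 of the 49 were called, crygm2d9 and crygm2d5. The share of all tested genes called with weights was not computed, and 5 genes of the other lists given below were called too. At an unadjusted p of 0.05, 31 of the 49 genes (63.3%) were lower in morphants and 1 was higher, against 6.93% and 8.99% of all tested genes. The fold change was negative for 42 of the 49, against 50.1% of all tested genes, and its median was -0.40, against 0.00. In 30 genes all morphants lay below all controls, and in 2 all lay above, against 10.2% and 11.6% of all tested genes. The 15 gamma M2d genes, close copies that may share reads, are all among the 31 lower and the 30 non-overlapping genes. With these copies summed, the median fold change of the crystallins was -0.32.

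**Figure D1:**
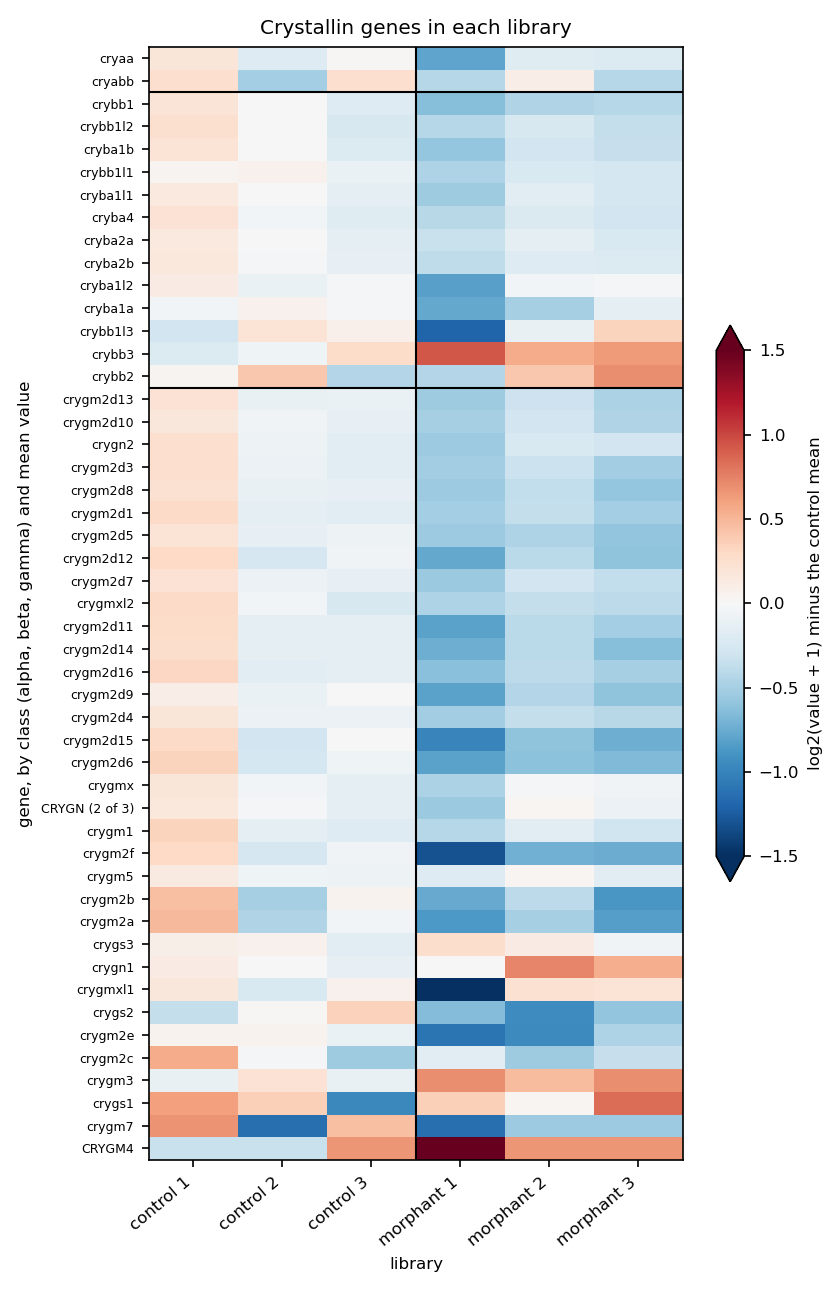
Heat map of the 49 crystallin genes (rows, grouped by class and ordered by mean value) in the 6 libraries (columns). Colour is log2(value + 1) minus the control mean of the same gene, and the scale ends at 1.5 in either direction. Most beta and gamma rows with high means are above their control mean in control 1 and below it in all 3 morphants, while rows with low means are mixed.

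Groups that did not overlap were found mainly among the genes with high means. All 27 crystallins with a mean of at least 1000 had a negative fold change, from -0.77 to -0.18 with a median of -0.43, in 25 of them the groups did not overlap, and 25 were lower at an unadjusted p of 0.05. These 27 include all 15 gamma M2d genes, close copies that may share reads. High genes of the whole transcriptome were lower in morphants more often than low ones. Among all 1850 tested genes with such a mean, 68.5% had a negative fold change, 29.2% had all morphants below all controls and 23.4% were lower at an unadjusted p of 0.05. Of the 9 crystallins with a mean from 50 to under 1000, 8 were negative and in 3 all morphants lay below all controls. Their median of -0.39 was near that of the high genes. Of the 13 under 50, 7 were negative and 6 positive, with a median of -0.25 and 2 (15.4%) non-overlapping in each direction. Over all tested genes, all morphants lay below all controls in 10.2% and above them in 11.6%, so the low crystallins were near these shares.

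**Figure D2:**
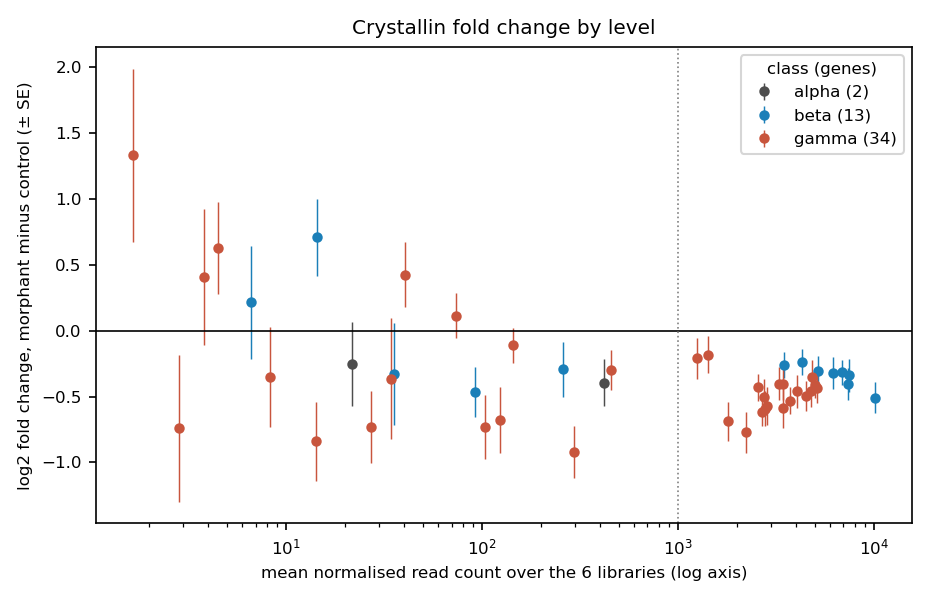
Log2 fold change, morphant minus control, with its SE (vertical axis) against the mean value over the 6 libraries (horizontal axis, log scale) for each of the 49 crystallin genes, coloured by class. The 27 genes to the right of the dotted line at a mean of 1000 all lie below 0, and those with low means scatter on both sides with wide error bars.

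Control 1 and morphant 1 were the extreme libraries for these genes. Control 1 was the highest of the 6 libraries in 35 of the 49 crystallins and in 26 of the 27 high ones, and morphant 1 the lowest in 33 and 23. Over all tested genes with a mean of at least 1000, control 1 was the highest in 47.3% and morphant 1 the lowest in 20.5%. With both libraries left out, the median fold change was -0.22 in place of -0.40, with 20 of 49 genes lower at an unadjusted p of 0.05, against 6.81% of all tested genes. Of the 27 high crystallins, among them the 15 M2d copies, 25 were then still negative and 18 lower at an unadjusted p of 0.05. The share of all genes with a mean of at least 1000 was not computed without these libraries. With all 6 libraries 23.4% of them were lower at that p. Scaling the libraries to equal totals moved the median of all tested genes to 0.11 and that of the crystallins to -0.29. With that scaling, all morphants lay below all controls in 22 of the 49 crystallins and 19 of the 27 high ones, against 5.06% of all tested genes and 13.7% of those with a mean of at least 1000. Both crystallin counts include all 15 M2d copies, which may share reads. The part of these libraries in the result beyond these values was not tested.

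The alpha crystallins overlapped between the groups. The gene cryaa on chromosome 1, encoding the lens alpha A chaperone, was at 533, 413 and 475 in controls and at 272, 414 and 408 in morphants. Morphant 1 was far below the rest, and morphants 2 and 3 lay close to control 2. The log2 fold change of cryaa was -0.39 ± 0.18 (SE), with a limma adjusted p of 0.321. For cryabb on chromosome 5, an alpha B gene, the values were 28, 16 and 28 in controls and 17, 25 and 17 in morphants, with a log2 fold change of -0.25 ± 0.32 (SE) and a limma adjusted p of 0.726. These values interleave, and the direction turned to 0.03 when limma weighted the libraries. The alpha sum of 498 ± 66.2 (SD, n = 3) in controls and 384 ± 82.9 (SD, n = 3) in morphants gave a log2 ratio of -0.37, or -0.20 without morphant 1 and -0.11 without control 1 and morphant 1.

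Beta crystallins, the structural proteins that form oligomers in the fibre cell, were lower in sum in every morphant. Their sum was 64777, 57740 and 51130 in controls 1 to 3 and 40753, 48016 and 46290 in morphants 1 to 3, a difference of 22.2% between the group means. The groups did not overlap, and morphant 2 lay closest to control 3. As a share of the library total, beta crystallins made up 0.506% ± 0.044 (SD, n = 3) in controls and 0.427% ± 0.043 (SD, n = 3) in morphants. By share, control 3 at 0.4621% and morphant 2 at 0.4618% were nearly level. All 7 acidic beta A genes were negative, from -0.47 to -0.24, and 6 of them were lower at an unadjusted p of 0.05. Of the 6 basic beta B genes 4 were negative and 2 positive, with 3 lower and 1 higher at an unadjusted p of 0.05. Of all tested genes 50.1% were negative, and 6.93% were lower and 8.99% higher at that p. Among those with a mean of at least 1000, 68.5% were negative and 23.4% were lower at that p. The median over the 13 beta genes was -0.32, or -0.21 without morphant 1.

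The beta gene with the lowest p was crybb1 on chromosome 10, a basic beta crystallin. Its values were 13510, 11896 and 10373 in controls and 7587, 8674 and 8792 in morphants. Every morphant was below every control, with a log2 fold change of -0.51 ± 0.12 (SE) and a limma adjusted p of 0.170. Its neighbour on that chromosome, the acidic cryba4, was at 6647, 5549 and 5044 in controls and at 4283, 4899 and 4686 in morphants (log2 fold change -0.31 ± 0.11 SE, limma adjusted p = 0.267). Here too the groups were apart, by a narrower gap between control 3 and morphant 2. With equal library totals cryba4 overlapped, morphant 2 exceeding control 3, and its log2 fold change was -0.19. The acidic cryba1b on chromosome 21 was at 9651, 8397 and 7315 in controls and at 5620, 6872 and 6593 in morphants, without overlap (log2 fold change -0.41 ± 0.12 SE, limma adjusted p = 0.218).

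Zebrafish carry further copies related to crybb1 and cryba1, named with an l for "like". The gene crybb1l2 on chromosome 1 was at 9792, 8340 and 7061 in controls and at 6212, 7031 and 6511 in morphants, so that control 3 and morphant 2 were nearly level (log2 fold change -0.34 ± 0.12 SE, limma adjusted p = 0.263). On chromosome 14, crybb1l1 was at 7803, 7932 and 7090 in controls and at 5511, 6487 and 6345 in morphants (log2 fold change -0.32 ± 0.09 SE, limma adjusted p = 0.214). Its neighbour cryba1l1 was at 7538, 6857 and 6140 in controls and at 4698, 6134 and 5668 in morphants (log2 fold change -0.32 ± 0.12 SE, limma adjusted p = 0.272). These neighbours had closely similar fold changes, although for cryba1l1 control 3 and morphant 2 differed by very little. With equal library totals morphant 2 exceeded control 3 in crybb1l2 and cryba1l1, so both overlapped, with log2 fold changes of -0.23 and -0.21. The acidic cryba2a and cryba2b had the smallest differences among the high beta genes, at -0.24 and -0.26.

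Among crystallins of positive fold change, crybb3 on chromosome 5 had the one unadjusted p under 0.05. It had low values, 9, 10 and 13 in controls and 21, 16 and 17 in morphants. All morphants were above all controls, with a log2 fold change of 0.71 ± 0.29 (SE), an unadjusted limma p of 0.0411 and an adjusted p of 0.300. The related crybb2 on chromosome 8 also had low values, 6, 8 and 4 in controls and 4, 8 and 10 in morphants, with overlap.

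Gamma crystallins, the monomeric proteins of the dense lens core, had the largest difference of the 3 class sums. Their sum was 87490, 68218 and 68224 in controls 1 to 3 and 48961, 58141 and 53026 in morphants 1 to 3, lower by 28.5% between the group means. The groups did not overlap, and control 1 stood far above the other controls. The log2 ratio of the group means was -0.48 for gamma and -0.36 for beta. Without control 1 and morphant 1 these ratios were -0.30 and -0.21, and with equal library totals they were -0.366 and -0.245. Within each library, the gamma sum was 1.35, 1.18 and 1.33 times the beta sum in controls and 1.20, 1.21 and 1.15 times in morphants. Control 2 lay below morphants 1 and 2, so the balance between the classes overlapped between the groups.

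**Figure D3:**
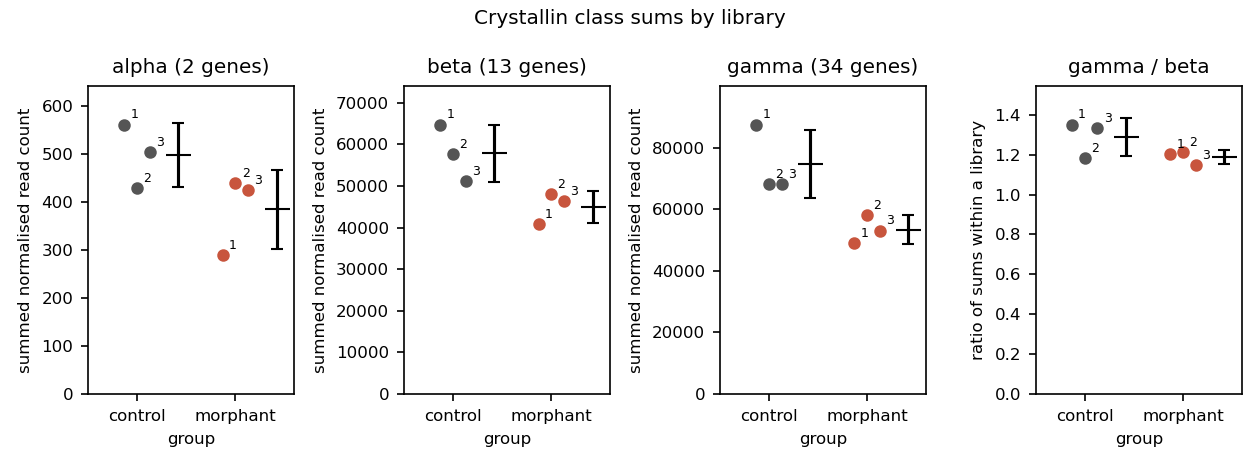
Sum of normalised read counts per library for the alpha, beta and gamma crystallins, and the ratio of the gamma to the beta sum, in controls (grey) and morphants (red). Points are libraries with their replicate numbers, and the bars beside them are the mean ± SD of 3 libraries. The beta and gamma sums do not overlap between the groups, and the alpha sums and the ratio do.

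The gamma M2d genes, the main expansion of the fish gamma M family, were lower in value in every morphant than in any control. All 15 had a negative fold change, from -0.77 to -0.41 with a median of -0.50, and in all 15 every morphant was below every control. All morphants lay below all controls in 29.2% of the tested genes with a mean of at least 1000. Control 1 was the highest library in all 15 M2d genes and morphant 1 the lowest in 11. These genes are close copies among which reads may have been divided, so they are not 15 separate measurements. The sum of the 15 genes was 71463, 55362 and 56258 in controls and 39569, 46506 and 41924 in morphants, a difference of 30.1% between the group means. Its log2 ratio was -0.52, or -0.40 as a share of the library total.

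The lowest p among all crystallins belonged to crygm2d9, at 3470, 3005 and 3240 in controls and 1857, 2376 and 2125 in morphants. The controls were close together here, and the gap to the morphants was wide (log2 fold change -0.62 ± 0.11 SE, limma adjusted p = 0.127). For crygm2d5 the values were 5109, 4051 and 4191 in controls and 3032, 3218 and 2942 in morphants (log2 fold change -0.53 ± 0.10 SE, limma adjusted p = 0.158). The copy with the most negative fold change, crygm2d15, was at 3390, 2275 and 2771 in controls and 1397, 1828 and 1676 in morphants (log2 fold change -0.77 ± 0.16 SE, limma adjusted p = 0.158). Its controls were spread more widely than those of crygm2d9, with control 2 nearest to the morphants. For crygm2d6 the values were 2794, 1839 and 2109 in controls and 1273, 1448 and 1401 in morphants, again with control 2 the nearest (log2 fold change -0.69 ± 0.15 SE, limma adjusted p = 0.158).

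Another 4 copies were among the 5 gamma genes with the most reads, which is not a level per length, and had fold changes from -0.50 to -0.41. Values of crygm2d13 were 6843, 5481 and 5492 in controls and 4092, 4760 and 4251 in morphants (log2 fold change -0.44 ± 0.11 SE, limma adjusted p = 0.196). Values of crygm2d10 were 6455, 5543 and 5259 in controls and 4071, 4682 and 4204 in morphants (log2 fold change -0.41 ± 0.10 SE, limma adjusted p = 0.191). In both, controls 2 and 3 were nearly equal and control 1 higher. Similar values were found for crygm2d3, at 6586, 5219 and 4913 in controls and 3849, 4411 and 3841 in morphants (log2 fold change -0.46 ± 0.12 SE, limma adjusted p = 0.198). They were 6136, 4829 and 4814 in controls and 3591, 4042 and 3505 in morphants for crygm2d8 (log2 fold change -0.50 ± 0.12 SE, limma adjusted p = 0.175). In each of these 4 copies morphant 2 was the highest morphant and still below every control.

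The other gamma M2 genes, crygm2a, crygm2b, crygm2c, crygm2e and crygm2f, were all negative, from -0.92 to -0.35. At an unadjusted p of 0.05, 4 of them were lower, against 6.93% of all tested genes. The most negative of the 49 crystallins was crygm2f, at 471, 321 and 368 in controls and 154, 232 and 227 in morphants, without overlap (log2 fold change -0.92 ± 0.20 SE, limma adjusted p = 0.158). Its lowest control was above its highest morphant by a clear margin. Of the 5 remaining gamma M genes (crygm1, crygm3, CRYGM4, crygm5 and crygm7), 3 were negative and 2 positive, and 0 had an unadjusted p under 0.05. Among them crygm1 was at 626, 451 and 434 in controls and 368, 445 and 403 in morphants, and crygm5 at 165, 144 and 143 in controls and 131, 153 and 134 in morphants. Both overlapped between the groups, crygm5 almost fully, with a log2 fold change of -0.11 ± 0.13 (SE).

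On chromosome 9 of the current zebrafish assembly, from which the order of genes was taken, 25 consecutive protein-coding genes from crygm2e to crygm3 are all gamma M genes. The 27 gamma crystallins that the files place on this chromosome had a median fold change of -0.50, with 25 negative and in 19 all morphants below all controls. The 19 include all 15 M2d copies, which may share reads. Outside these copies the genes so separated were crygm2a, crygm2e, crygm2f and crygs2. Over all tested genes 10.2% had all morphants below all controls. Among those with a mean of at least 1000, as in all 15 M2d copies, the share was 29.2%. Along the run the M2d copies had fold changes from -0.77 to -0.41, and crygm2f, crygm5 and crygm3 at its end had -0.92, -0.11 and 0.63. That of crygm3 rests on low values, 3, 4 and 3 in controls and 6, 5 and 6 in morphants. Of the 7 gamma genes on other chromosomes 4 were negative and 3 positive, with a median of -0.18 and in 2 all morphants below all controls. The positive ones, crygn1, crygs1 and CRYGM4, all had a mean under 50. The 4 with a mean of at least 50 were all negative, with a median of -0.28, and in 2 all morphants lay below all controls. The 13 beta genes are spread over 9 chromosomes.

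**Figure D4:**
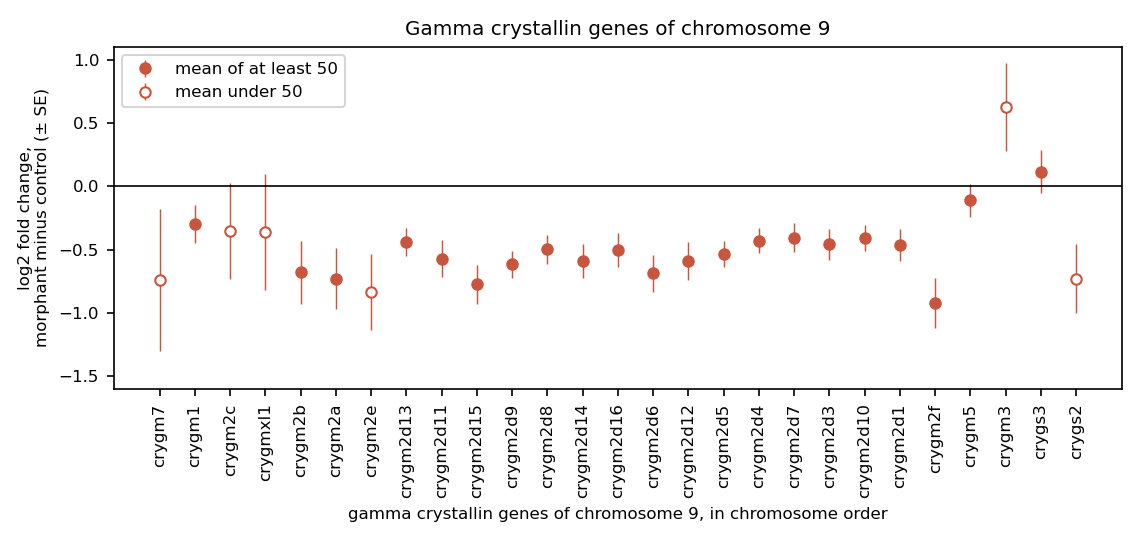
Log2 fold change, morphant minus control, with its SE, for the gamma crystallin genes of chromosome 9 in the order of the current assembly. Open symbols mark genes with a mean under 50. The 15 crygm2d genes lie between -0.77 and -0.41. Toward the end crygm5, crygm3 and crygs3 lie near or above 0, with crygm2f at -0.92 before them and crygs2 at -0.73 after them.

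Gamma N crystallins are regarded as intermediate between the beta and gamma families, and crygn2 on chromosome 24 had the most reads among them. Its values were 6438, 5152 and 4809 in controls and 3716, 4636 and 4428 in morphants. The groups did not overlap, and control 3 lay close to morphant 2 (log2 fold change -0.36 ± 0.13 SE, limma adjusted p = 0.266). With equal library totals crygn2 overlapped, morphant 2 exceeding control 3, and its log2 fold change was -0.24. Per 100 of the beta sum of the same library, crygn2 was at 9.94, 8.92 and 9.41 in controls and 9.12, 9.66 and 9.57 in morphants, with overlap. The gene listed as CRYGN (2 of 3) is now named crybgx and was counted here by its listed symbol. It was at 1493, 1321 and 1220 in controls and 909, 1363 and 1256 in morphants, where morphant 1 alone was low. With 37, 34 and 31 in controls and 34, 57 and 50 in morphants, crygn1 also overlapped.

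Among the gamma Mx genes, crygmxl2 on chromosome 12 was at 4526, 3601 and 3155 in controls and 2694, 2913 and 2839 in morphants, without overlap (log2 fold change -0.40 ± 0.13 SE, limma adjusted p = 0.229). The related crygmx on the same chromosome was at 1701, 1460 and 1353 in controls and 1078, 1472 and 1447 in morphants, with morphants 2 and 3 inside the control range. Gamma S crystallins, which belong to the lens cortex in mammals, had low values. Of the 3, crygs2 on chromosome 9 was at 26, 34 and 43 in controls and 21, 17 and 22 in morphants, without overlap (log2 fold change -0.73 ± 0.27 SE, limma adjusted p = 0.269). The others, crygs1 and crygs3, were positive and overlapped, crygs3 with 75, 74 and 63 in controls and 85, 77 and 68 in morphants.

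Other genes of the lens fibre were set beside the crystallins. Of 18 lens membrane and cytoskeleton genes 13 had a negative fold change, with a median of -0.12, or -0.01 with equal library totals. In 3 (16.7%) all morphants lay below all controls, and 2 (11.1%) were lower at an unadjusted p of 0.05. Of all tested genes 50.1% were negative, 10.2% had all morphants below all controls and 6.93% were lower at that p. The membrane gene lim2.4 was at 1056, 889 and 852 in controls and 666, 793 and 755 in morphants (log2 fold change -0.33 ± 0.11 SE, limma adjusted p = 0.236). The lens water channel genes differed by similar amounts, mipb with 1929, 1569 and 1603 in controls and 1204, 1475 and 1425 in morphants (log2 fold change -0.31 ± 0.11 SE, limma adjusted p = 0.263). For mipa the values were 1667, 1521 and 1503 in controls and 1029, 1428 and 1406 in morphants (log2 fold change -0.29 ± 0.13 SE, limma adjusted p = 0.321). In these 3 genes every morphant was below every control. With equal library totals mipb and mipa overlapped, morphant 2 exceeding control 2, with log2 fold changes of -0.20 and -0.18. For lim2.4 the groups stayed apart with that scaling, at -0.22. By contrast the gene listed as CU929052.1, now named bfsp1 after a beaded filament protein of the fibre cell, was at 1899, 2333 and 2163 in controls and 2313, 2658 and 2448 in morphants, where control 2 exceeded morphant 1.

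The crystallin sum per unit of the lens membrane and cytoskeleton sum was 15.0, 12.6 and 12.7 in controls and 10.8, 10.8 and 10.8 in morphants, with no overlap. Without CU929052.1 it was 18.5, 16.5 and 16.5 in controls and 15.0, 14.7 and 14.7 in morphants, still with no overlap. Relative to mipa and mipb together, the crystallin sum was 42.5, 40.9 and 38.6 in controls and 40.3, 36.7 and 35.2 in morphants. That ratio overlapped, since morphant 1 exceeded control 3.

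Lens transcription factors, which also act in other tissues, had a median of -0.05 over 20 genes, which turned to 0.07 with equal library totals. Of them 13 were negative, and 1 (5%) was lower and 0 higher at an unadjusted p of 0.05, against 6.93% and 8.99% of all tested genes. That one was mafa, at 453, 467 and 473 in controls and 377, 407 and 412 in morphants (log2 fold change -0.22 ± 0.09 SE, limma adjusted p = 0.284). The fibre cell regulator prox1a was at 257, 483 and 482 in controls and 524, 609 and 556 in morphants, with control 1 far below all other libraries (log2 fold change 0.52 ± 0.23 SE, limma adjusted p = 0.315). The eye regulator pax6b was at 117, 208 and 176 in controls and 209, 250 and 208 in morphants, also with control 1 the lowest.

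Photoreceptor genes, from the neighbouring retina, were lower in morphant 1 above all. Of 35 genes 28 were negative, with a median of -0.29, or -0.07 without morphant 1. In 10 (28.6%) all morphants lay below all controls, and 9 (25.7%) were lower at an unadjusted p of 0.05. These shares were 10.2% and 6.93% over all tested genes, and 29.2% and 23.4% over those with a mean of at least 1000. Morphant 1 was the lowest library in 30 of the 35. Rhodopsin, the rod pigment gene rho, was at 25792, 22072 and 19454 in controls and 9858, 17660 and 18879 in morphants, so that morphants 2 and 3 lay just under control 3 (log2 fold change -0.58 ± 0.24 SE, limma adjusted p = 0.292). The cone transducin gene gngt2b was at 5215, 4448 and 4380 in controls and 2504, 3736 and 3447 in morphants (log2 fold change -0.55 ± 0.15 SE, limma adjusted p = 0.199). With control 1 and morphant 1 left out the photoreceptor median was 0.00, while the crystallin median was -0.22. The crystallin sum per unit of the photoreceptor sum was 1.12, 1.09 and 1.05 in controls and 1.35, 1.01 and 0.919 in morphants. That ratio overlapped, with morphant 1 above every control and morphants 2 and 3 below, and its mean was 1.09 in both groups. Whether the crystallin and photoreceptor genes differ in response was not tested.

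The median deviation from the control mean in morphants 1, 2 and 3 was -0.55, -0.36 and -0.47 over the gamma crystallins and -0.46, -0.19 and -0.23 over the beta crystallins. For photoreceptor genes it was -0.78, -0.06 and -0.07, and for lens membrane and cytoskeleton genes -0.23, -0.07 and -0.16. The beta and gamma deviations were negative in all 3 morphants, and so were those of the other eye lists. In morphants 1, 2 and 3 these were -0.03, -0.085 and -0.065 for lens transcription factors and -0.088, -0.131 and -0.115 for other retinal genes. The photoreceptor deviation was close to 0 in morphants 2 and 3. In control 3 the beta deviation was -0.143, not far from the -0.19 of morphant 2. Among 25 other retinal genes 17 were negative, and the median was -0.07, or 0.05 with equal library totals and -0.14 without morphant 1. Of the 25, 5 (20%) were lower and 1 higher at an unadjusted p of 0.05, against 6.93% and 8.99% of all tested genes.

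**Figure D5:**
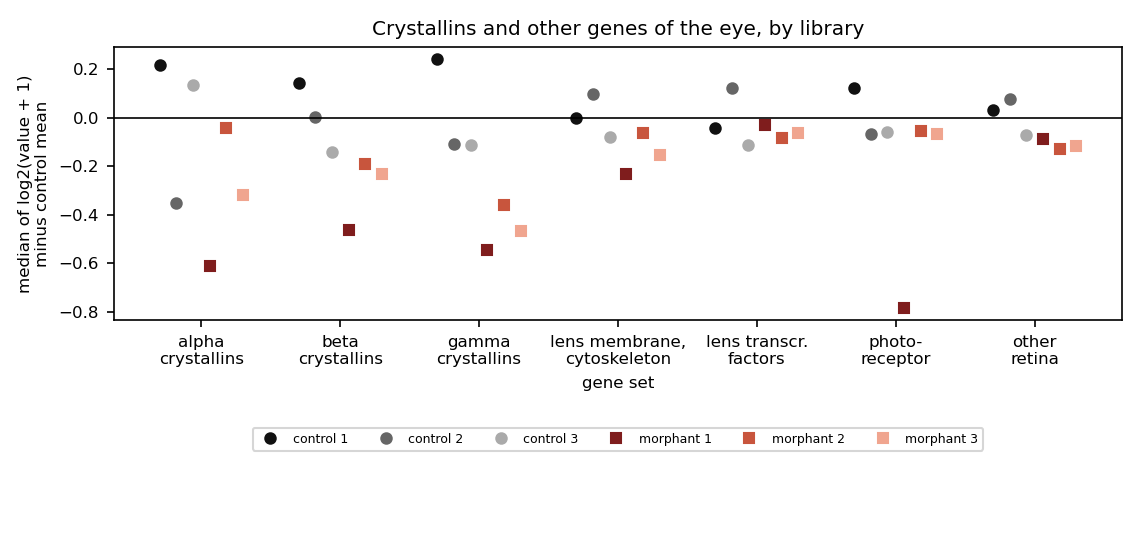
Median over the genes of a set of log2(value + 1) minus the control mean of each gene (vertical axis), per library, for the 3 crystallin classes and 4 lists of other eye genes. Controls are circles and morphants squares, with shades for the replicate numbers. For beta and gamma crystallins all 3 morphants lie below all 3 controls, and for photoreceptor genes morphant 1 lies far below the others.

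Genes of the other tissues considered had differences of their own, with 0 genes called in any of the 7 lists. Of 11 cornea and periocular genes 11 were negative and 4 (36.4%) were lower at an unadjusted p of 0.05. Their median was -0.21, or -0.10 both with equal library totals and without control 2. At an unadjusted p of 0.05, 6.93% of all tested genes were lower, and 23.4% of those with a mean of at least 1000. The epithelial keratin gene krt5, which is not confined to the eye, was at 29795, 32110 and 28072 in controls and 22689, 18669 and 20397 in morphants (log2 fold change of -0.55, with a limma adjusted p of 0.158). Of 10 other small heat shock protein genes, the relatives of the alpha crystallins, 8 were negative and 2 (20%) were lower at an unadjusted p of 0.05. Their median was -0.18, or -0.07 with equal library totals, and it lay between -0.27 without control 2 and -0.05 without control 1. Among them hspb6 was at 241, 141 and 243 in controls and 108, 147 and 154 in morphants, with overlap through control 2. Of 18 heart and skeletal muscle genes 12 were negative, 5 (27.8%) were lower and 1 higher at an unadjusted p of 0.05. Their median was -0.20, or -0.09 with equal library totals and -0.12 without morphant 2. The sarcomeric actin gene actc1a was at 2829, 2490 and 2876 in controls and 1842, 1884 and 1589 in morphants (log2 fold change -0.63 ± 0.10 SE, limma adjusted p = 0.127). The fold changes of krt5 and actc1a were as negative as those of the M2d crystallins.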

How the data were processed

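Per gene and library the deposited unit is a score without fixed range: per-gene read counts that the authors had divided by a size factor for each library and rounded, as read from the values and from the size factors named in the files' last row, which holds no value and was left out. The submitters' processing notes name the build Zv9. For the aligner, the counting program and strand, the setting was not given in the sources used here. Raw reads could not be recovered through the rounding, so no count test was run. Gene order came from the RefSeq gene table of the assembly GRCz12tu, used for order and current names only.

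The 26082 genes reaching a value of 1 in 3 or more libraries were transformed as log2(value + 1) and compared with limma 3.58.1 under R 4.3.3 in a model of group alone, with a mean-variance trend, two-sided p-values and Benjamini-Hochberg adjustment at 0.05. The fit was tested on simulated data. Members, gene lists and tests were chosen with earlier results of these data known. The 7 lists held 147 entries, of which 137 were tested. Named were slc2a12, the alpha genes, in the beta and gamma classes the 5 genes of highest mean and the 5 of lowest p, positive members with an unadjusted p under 0.05, called members and, of each list, the 3 lowest p among genes with a mean of at least 50 and the 2 highest means. Other genes were named after their values were seen, and some list genes under the rule are given by count. The 19 alternatives covered scaling, filters, pseudocount, the empirical Bayes step, library weights, a replicate block, the member rule, close copies summed, and libraries left out.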

Additional observations from a re-analysis of the deposited data

How the results depend on the processing

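Of 207 repeats of the summary results under 19 alternatives, 197 kept their call and stayed within 1.5 times the count, or within the SD between replicates for medians and ratios. Weighting the libraries in limma called 2 crystallins, crygm2d9 (adjusted p = 0.0458, range 0.0458 to 0.551 over 16 alternatives) and crygm2d5 (0.0418, range 0.0418 to 0.573), and 5 list genes, and gave slc2a12 a log2 fold change of -0.615 (0.0467, range 0.0467 to 0.573). A robust empirical Bayes step called 1 list gene, actc1a. Without control 1 and morphant 1, an alternative chosen after seeing the data, 20 crystallins were lower at an unadjusted p of 0.05, the medians were -0.22 for all, -0.138 for beta and -0.287 for gamma crystallins, and the class log2 ratios were -0.207 for beta and -0.296 for gamma. The causes were not tested. With 1 library left out, 0 crystallins were called, 21 to 29 were lower at an unadjusted p of 0.05, and the median was -0.472 to -0.306. Whether replicate numbers pair the libraries cannot be told (correlations of deviations for equal numbers 0.104, -0.059 and 0.118 over 15942 genes). Morphants 1 and 3 were closest to the control of their own number, and morphant 2 was closest to control 3 (0.212). With the replicate block 0 crystallins were called and 26 were lower at an unadjusted p of 0.05, with 0.186 as the lowest adjusted p. Shares of all tested genes were not computed with library weights, with 1 library left out or with the replicate block. Among the 19 crystallins named by the rule, the sign turned only for cryabb (0.031 with library weights). Signs of the other crystallins were followed by count only. Of the 49, 42 were negative in the main fit, 41 with equal totals and 38 without control 1 and morphant 1. Without these libraries crygmx and CRYGN (2 of 3) were no longer lower in morphants. Among the medians, signs turned with equal totals for lens transcription factors (0.067) and other retinal genes (0.045). Without control 1 and morphant 1 the sign turned for the photoreceptor median (0.003). Estimated depth is least in control 1, where 1 read is worth 1.56 units, so crystallins with a mean under 50 rest on few reads.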

Other observations

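In 3 further rows, outside the set above because the files list them under clone names, the current symbols are those of gamma M2d crystallins. The row si:ch211-212n6.16 (now crygm2d21) was at 5478, 4079 and 3952 in controls and 2845, 3381 and 2953 in morphants (log2 fold change -0.55, limma adjusted p = 0.191). For si:ch211-212n6.18 (now crygm2d2) the values were 6087, 4520 and 4416 in controls and 3483, 4021 and 3645 in morphants (log2 fold change -0.42, limma adjusted p = 0.228), and for zgc:162402 (now crygm2d20) they were 5550, 4661 and 4633 in controls and 3470, 4002 and 3494 in morphants (log2 fold change -0.44, limma adjusted p = 0.177). In each, every morphant was below every control, as in the 15 M2d genes named so in the files, with which they may share reads. Of other genes whose symbols start with cry, only cryl1, cryz, cryzl1 and crym were examined. They encode enzymes or binding proteins outside these lens families and were not called either. The gene cryl1 was at 245, 215 and 166 in controls and 156, 161 and 173 in morphants, with overlap and a log2 fold change of -0.34 (limma adjusted p = 0.336), near the median of the beta crystallins. The log2 fold change was -0.11 for cryz, at 159, 166 and 159 in controls and 146, 145 and 156 in morphants, without overlap. It was 0.11 for cryzl1 and -0.03 for crym, both with overlap.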
